A study of Mus musculus with 6 samples.

Results

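Hif3a and 9 further genes of the cellular response to low oxygen were followed in brain RNA from mice fed a diet with or without PLDP, a protease-treated porcine liver decomposition product. Hif3a was chosen by its measured difference between the diets in these same mice. The other 9 genes, Hif1a, Epas1, Egln3, Vegfa, Pdk1, Pdk4, Adm, Ankrd37 and Bnip3, were picked for their known function, with earlier results of these data known. The question was whether Hif3a differed alone or together with the genes of its pathway. The 10 genes were among 60354 features listed in the count files, and all 10 were among the 18580 features with enough counts to be tested.

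Whole brains came from male C57BL/6NCrSlc mice that were 16 weeks old when the diets began. The 3 PLDP mice (mouse 17, mouse 22 and mouse 26) had eaten, for 16 weeks, feed based on AIN-93M in which PLDP made up 20%. The 3 control mice (mouse 2, mouse 5 and mouse 10) had eaten a PLDP-free, modified AIN-93M feed, with total calories adjusted close to those of the PLDP feed. All 6 mice then went through 17 days of behavioral tests, during which no PLDP was given, and RNA was taken after the tests. Each library was made from 1 mouse, and held between 18797061 and 23938729 counts on genes. Expression is given as CPM, the count of a gene scaled to the size of its library, with TMM scaling between libraries. In bulk brain RNA, fewer cells of a type and less RNA per cell cannot be told apart.

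Hypoxia-inducible factors (HIFs) are transcription factors made of an oxygen-regulated alpha subunit and a constant partner, Arnt or Arnt2. With oxygen present, prolyl hydroxylases of the Egln family mark the alpha subunits Hif1a and Epas1 for destruction through Vhl, so that much of their control lies in the protein and not in the RNA. When oxygen falls, HIFs switch on genes of glycolysis, vessel growth and mitophagy through the short DNA core A/G-CGTG. Hif3a, the least studied alpha subunit, also has short splice forms that can dampen the other alpha subunits. In brain, Epas1 is best known from endothelium and astrocytes, while Hif1a is found in most cell types.

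The start regions of the genes show this core directly. A promoter window from 250 bases before to 50 bases after the start was found in RefSeq (build GRCm38.p6) for 9 of the 10 genes, in 11 windows, and not for Epas1. The core was searched as ACGTG and GCGTG on both strands, with CACGTG counted once on each strand. At least 1 core was present in 9 of the 11 windows, as against 43.8% of all 32851 windows of this length. Each of the 9 genes had a core in at least 1 window. Vegfa had cores only in its second window, and the window at its gene start had 0. These genes are HIF subunits or known HIF targets, so the contrast with all windows is no test. The windows of 4 genes are shown with their cores in capitals: Hif3a, the gene that differed most, Egln3, the gene whose lower values in PLDP mice did not overlap those of control mice, and Bnip3 and Ankrd37, the targets with the most cores.
Hif3a, chr7:17062378-17062677, minus strand: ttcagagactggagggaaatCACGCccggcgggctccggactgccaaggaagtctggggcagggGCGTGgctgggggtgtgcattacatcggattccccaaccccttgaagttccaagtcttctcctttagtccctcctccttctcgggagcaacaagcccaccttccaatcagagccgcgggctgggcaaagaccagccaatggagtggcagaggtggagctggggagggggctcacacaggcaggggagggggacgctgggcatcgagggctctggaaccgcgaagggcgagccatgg
Egln3, chr12:54203825-54204124, minus strand: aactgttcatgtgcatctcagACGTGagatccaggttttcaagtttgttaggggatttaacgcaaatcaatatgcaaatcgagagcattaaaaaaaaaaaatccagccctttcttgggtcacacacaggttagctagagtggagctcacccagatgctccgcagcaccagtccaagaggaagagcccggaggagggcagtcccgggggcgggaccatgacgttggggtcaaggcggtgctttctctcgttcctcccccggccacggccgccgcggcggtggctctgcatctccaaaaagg
Bnip3, chr7:138909457-138909756, minus strand: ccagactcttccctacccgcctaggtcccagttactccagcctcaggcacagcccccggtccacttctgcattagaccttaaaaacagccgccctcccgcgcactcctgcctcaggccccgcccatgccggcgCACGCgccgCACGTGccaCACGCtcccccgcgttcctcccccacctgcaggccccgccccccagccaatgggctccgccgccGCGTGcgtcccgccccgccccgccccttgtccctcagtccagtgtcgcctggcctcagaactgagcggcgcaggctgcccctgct
Ankrd37, chr8:45999801-46000100, minus strand: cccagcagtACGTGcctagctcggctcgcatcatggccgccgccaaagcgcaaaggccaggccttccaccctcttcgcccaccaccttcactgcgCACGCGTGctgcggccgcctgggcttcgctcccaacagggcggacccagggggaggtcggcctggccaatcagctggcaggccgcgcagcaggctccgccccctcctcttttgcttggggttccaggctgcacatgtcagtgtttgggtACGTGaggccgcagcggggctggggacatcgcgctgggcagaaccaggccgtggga
The Hif3a window held 2 cores, 230 and 186 bases before the start, and windows with 2 or more made up 20.6% of all windows. Bnip3 held 5, the nearest of them 35 bases before the start, Ankrd37 held 4 and Egln3 held 1. A core is a match of letters only and does not show that a factor bound there.

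Hif3a was the gene with the largest difference of the 10, and its 3 PLDP values lay entirely above its 3 control values. Its expression was 3.12, 4.48 and 4.94 CPM in control mice 2, 5 and 10, and 6.78, 7.12 and 8.22 CPM in PLDP mice 17, 22 and 26. These values rest on 65, 99 and 102 counts in the control mice and 146, 170 and 154 in the PLDP mice. The mean was 4.18 ± 0.95 CPM in control mice and 7.37 ± 0.75 CPM in PLDP mice (SD, n = 3 mice each). On the log2 scale Hif3a differed by 0.81 (standard error 0.15), a 1.75-fold higher level in PLDP mice, and its absolute size ranked 161 among the 18580 tested features. No test is given for this gene, because the difference itself chose it. With each mouse left out in turn, its log2 fold change lay between 0.64 and 0.94.

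Hif3a (ENSMUSG00000004328) lies on the minus strand of chromosome 7 of GRCm38, from 17031507 to 17062427. Of 11 other genes annotated within 100 kb, 1 overlaps Hif3a on the other strand and was listed at 0 counts in all 6 mice. The 6 neighbors with enough counts to be tested had log2 fold changes between -0.05 and 0.05 and unadjusted p between 0.232 and 0.798 in edgeR's quasi-likelihood test. The nearest of them, the phosphatase gene Ppp5c at 3.58 kb, had 114.4 ± 3.53 CPM in control mice and 113.5 ± 3.54 CPM in PLDP mice (SD, n = 3 each).

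Among the other alpha subunits, Epas1 was slightly higher in PLDP mice and Hif1a was not distinguishable between the diets. Epas1, which encodes HIF-2alpha (ENSMUSG00000024140, chromosome 17 from 86753700 to 86833410), had 115.4, 114.9 and 110.8 CPM in the control mice and 121.9, 124.5 and 125.7 CPM in the PLDP mice. All 3 PLDP values were above all 3 control values. The rise was 9.05%, a log2 fold change of 0.13 (standard error 0.04, 95% interval 0.04 to 0.21), with an unadjusted p of 0.00868 and an adjusted p of 0.399 in edgeR's quasi-likelihood test. The unadjusted p of Epas1 stayed between 0.0032 and 0.0423 in all 12 alternative analyses. Hif1a (ENSMUSG00000021109, chromosome 12 from 73901375 to 73947530) had 90.6, 88.4 and 93.3 CPM in the control mice and 82.5, 87.7 and 91.2 CPM in the PLDP mice. The values of Hif1a overlapped, and its log2 fold change was -0.06 (95% interval -0.16 to 0.04, adjusted p = 0.786 in the same edgeR test). Exons of 2 other annotated genes, 1 on each strand, overlap those of Hif1a, and it is not stated whether reads were counted by strand.

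Egln3, an oxygen-dependent prolyl hydroxylase that is itself a HIF target (ENSMUSG00000035105, chromosome 12 from 54178981 to 54203860), had slightly lower values in PLDP mice that did not pass the test. It had 12.97, 12.05 and 12.83 CPM in the control mice and 11.28, 11.34 and 11.42 CPM in the PLDP mice. The PLDP values were close together and all below the control values. On the log2 scale the diets differed by -0.15 (95% interval -0.34 to 0.03, adjusted p = 0.645 in edgeR's quasi-likelihood test). Of the 9 genes chosen on function, 2 had values that did not overlap between the diets, Epas1 and Egln3, and over all tested features this held for 14.2%.

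**Figure D1:**
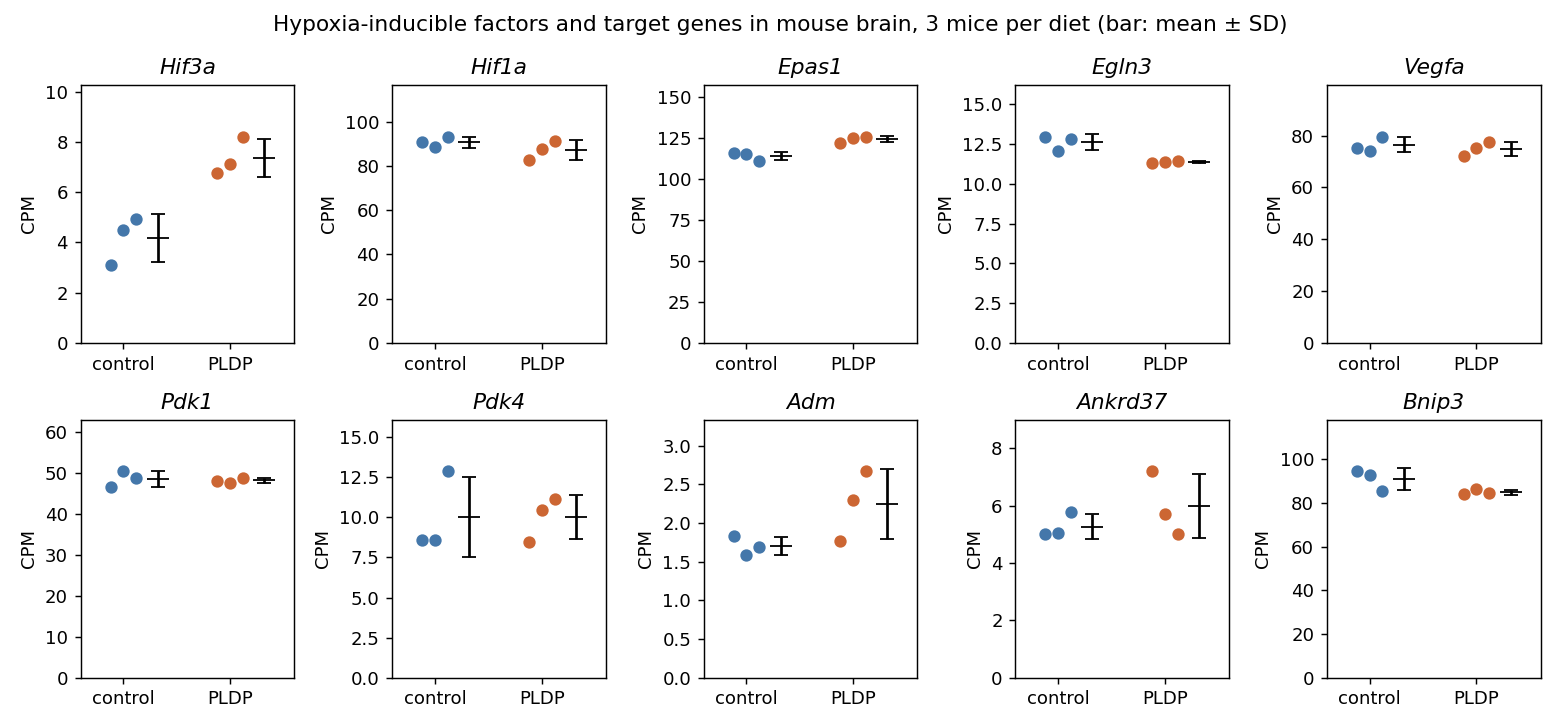
CPM of the 10 genes in each mouse, 1 panel per gene with its own axis from 0, for control mice (blue, mice 2, 5 and 10 from left to right) and PLDP mice (orange, mice 17, 22 and 26); black bars are the mean ± SD of 3 mice. The Hif3a points go from 3.12 to 4.94 CPM in control mice and from 6.78 to 8.22 CPM in PLDP mice, and the groups overlap in the panels of the other genes except Epas1 and Egln3.

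Among the members that are HIF targets, Adm and Ankrd37 had positive fitted differences and Vegfa, Bnip3 and Egln3 negative ones, Pdk1 and Pdk4 lay near 0 with signs that turned between alternative analyses, and none of these 7 passed the test. Vegfa, the main angiogenic growth factor (ENSMUSG00000023951, chromosome 17 from 46016993 to 46032369), had 75.4, 74.2 and 79.6 CPM in the control mice and 71.9, 75.1 and 77.5 CPM in the PLDP mice. Vegfa gave a log2 fold change of -0.03 (95% interval -0.13 to 0.08, adjusted p = 0.916 in edgeR's quasi-likelihood test). Adm, the gene of the vasodilator peptide adrenomedullin (ENSMUSG00000030790, chromosome 7 from 110627661 to 110629820), had the second largest difference. It had 1.83, 1.59 and 1.69 CPM in the control mice and 1.76, 2.30 and 2.67 CPM in the PLDP mice. PLDP mouse 17 lay within the control values. Adm gave a log2 fold change of 0.39 (95% interval -0.05 to 0.84, adjusted p = 0.631 in the same test). With 35 to 55 counts per mouse it was the gene with the fewest counts of the 10, and without PLDP mouse 17 its unadjusted p was 0.0242, with a log2 fold change of 0.54.

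Pyruvate dehydrogenase kinases turn pyruvate away from the mitochondrial acetyl-CoA supply, and neither of the 2 members of this family passed the test. Pdk1 (ENSMUSG00000006494, chromosome 2 from 71873224 to 71903858) had 46.6, 50.5 and 48.8 CPM in the control mice and 48.1, 47.7 and 48.9 CPM in the PLDP mice. Its log2 fold change was -0.01 (95% interval -0.12 to 0.10, adjusted p = 0.970 in edgeR's quasi-likelihood test). Pdk4, the kinase known to rise with fasting and fat use (ENSMUSG00000019577, chromosome 6 from 5483351 to 5496309), had 8.60, 8.61 and 12.88 CPM in the control mice and 8.50, 10.47 and 11.15 CPM in the PLDP mice. Control mouse 10 was the highest of all 6 and the other control mice were near the lowest PLDP mouse. The means of Pdk4 were 10.03 ± 2.47 CPM and 10.04 ± 1.38 CPM (mean ± SD of 3 mice), with a 95% interval of the log2 fold change from -0.30 to 0.31 (adjusted p = 0.999 in the same test).

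Bnip3, a mitophagy receptor (ENSMUSG00000078566, chromosome 7 from 138890836 to 138909519), had 94.5, 92.9 and 85.4 CPM in the control mice and 84.1, 86.3 and 84.6 CPM in the PLDP mice. PLDP mouse 22 lay above control mouse 10, and the other values of the diets were separate. Bnip3 gave a log2 fold change of -0.10 (95% interval -0.20 to 0.01, adjusted p = 0.608 in edgeR's quasi-likelihood test), and without control mouse 10 it was -0.14 with an unadjusted p of 0.0138. An exon of a predicted gene on the other strand overlaps Bnip3. Ankrd37, a small ankyrin repeat gene known for its strong response to HIF (ENSMUSG00000050914, chromosome 8 from 45996902 to 46005707), had 5.00, 5.03 and 5.76 CPM in the control mice and 7.20, 5.69 and 5.02 CPM in the PLDP mice. Only PLDP mouse 17 was above all control mice. Its log2 fold change was 0.19 (95% interval -0.12 to 0.49, adjusted p = 0.762 in the same test), and its exons overlap those of 2 genes on the other strand, Ufsp2 and Lrp2bp, so its values are uncertain if reads were counted without strand.

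At an unadjusted p under 0.05, 1 of the 9 genes chosen on function was called, Epas1, which was higher. Over all tested features 8.6% were called, 4.91% higher and 3.69% lower, so this count is near the background. The count was 2 without control mouse 10, where Bnip3 was called too, and 2 without PLDP mouse 17, where Adm was called too. With adjustment over all features, 0 of the 9 passed 0.05 in edgeR, DESeq2 or limma voom, each of which called 1 at the unadjusted threshold, and 0.0323% of all features passed in edgeR. Of the 9 genes, 4 had higher and 5 had lower fitted values in PLDP mice, with a median difference of -0.01 on the log2 scale, and the median over all tested features was -0.0006. For a single gene, the smallest two-sided p that an exact permutation test can reach is 0.1 with 3 mice per diet.

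**Figure D2:**
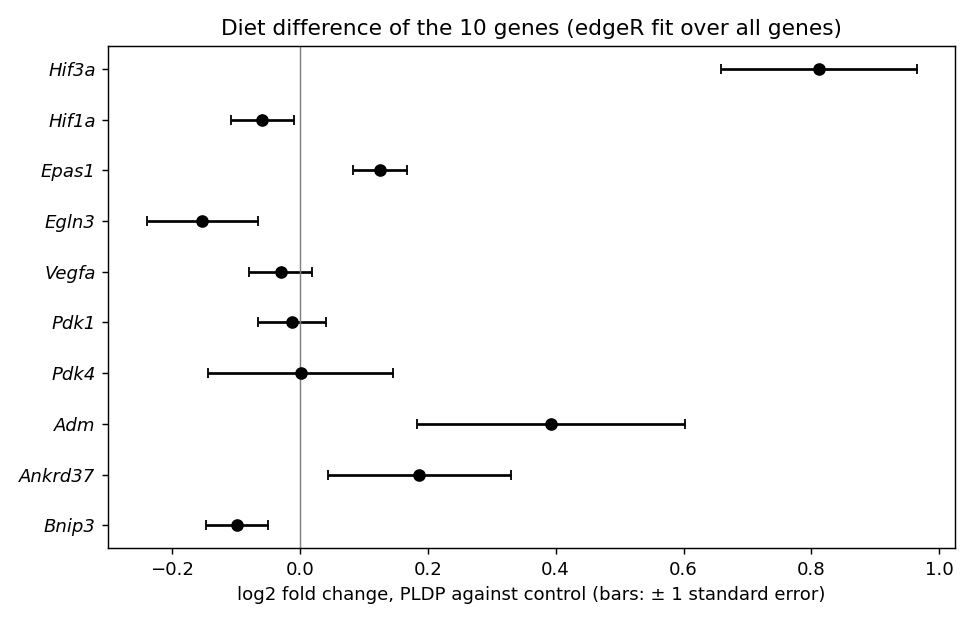
Log2 fold change of PLDP against control mice for the 10 genes, with bars of 1 standard error to each side, from an edgeR fit over all tested features with 3 mice per diet. Hif3a lies at 0.81 and the 9 other genes between -0.15 and 0.39.

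Per exon length, Hif3a was the lowest of the 10 genes and Bnip3 the highest. Levels are compared here as CPM per kb of annotated exon, averaged over the 6 mice. Bnip3 had 38.8 ± 2.01 CPM per kb (SD, n = 6 mice), followed by Epas1 with 21.3 ± 1.07, Vegfa with 17.6 ± 0.62 and Hif1a with 15.1 ± 0.63. In the middle were Pdk1 with 6.23 ± 0.17 CPM per kb, Egln3 with 4.50 ± 0.29, Ankrd37 with 3.65 ± 0.55 and Pdk4 with 2.86 ± 0.51. Adm had 1.22 ± 0.26 CPM per kb and Hif3a 0.86 ± 0.28. The ranges over mice of Egln3 and Ankrd37, of Ankrd37 and Pdk4 and of Adm and Hif3a overlapped, and those of the other neighbors in this order did not. Among the alpha subunits the order Epas1, Hif1a, Hif3a held in each of the 6 mice. Hif3a had 0.465, 0.668 and 0.736 CPM per kb in the control mice and 1.01, 1.06 and 1.22 in the PLDP mice.

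**Figure D3:**
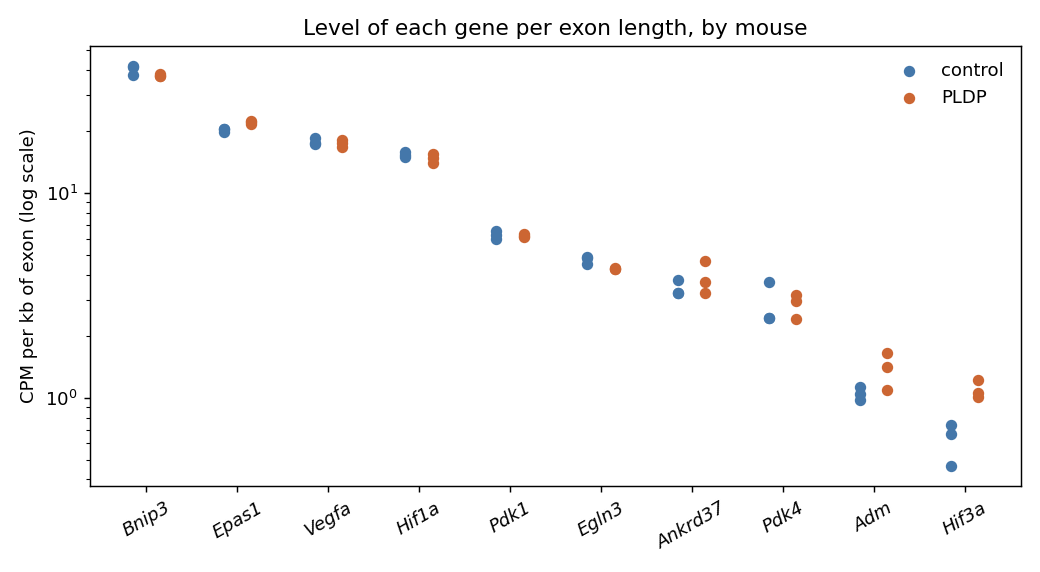
CPM per kb of annotated exon for the 10 genes in each mouse, on a log axis, ordered by the mean over 6 mice, with control mice in blue and PLDP mice in orange. Bnip3 is highest at 38.8 and Hif3a lowest at 0.86 on average, and the Hif3a values run from 0.465 to 0.736 in control mice and from 1.01 to 1.22 in PLDP mice.

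The machinery that senses oxygen and partners the alpha subunits was nearly level between the diets. Of its 19 listed genes, all tested, 1 was called higher (5.26%, against 4.91% of all features) and 0 lower, with a median log2 fold change of 0.01, and 2 were called without PLDP mouse 17. The called gene was Crebbp, a histone acetyltransferase used by HIF and by many other factors, which rose from 54.2 ± 1.23 to 62.9 ± 4.25 CPM (mean ± SD of 3 mice per diet). In edgeR's quasi-likelihood test Crebbp differed by 0.21 on the log2 scale (standard error 0.06) with an adjusted p of 0.256. Of 9 tested members of the related bHLH-PAS family, 0 were called at an unadjusted p under 0.05 in edgeR, DESeq2 and limma voom. The count was 1 with no filter on low counts or without control mouse 2, and 2 without PLDP mouse 17. Over all features, 1598 were called with all 6 mice and 2365 without PLDP mouse 17. While 49.8% of all features had positive log2 fold changes, all 9 family members did, with a median of 0.07. The most abundant of them, the circadian gene Clock, had 94.6 ± 4.69 and 96.5 ± 6.14 CPM.

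Wider lists of HIF targets held 63 genes beside the members, of which 61 were tested. These lists, too, were drawn up with earlier results of these data known. Epo was below the count filter, and Hmox1 was listed at 0 counts in all 6 mice, where a low level and reads left uncounted cannot be told apart. At an unadjusted p under 0.05, 7 were called higher and 2 lower, 9 in all, or 5 without control mouse 5. That is 14.8% of those tested, against 8.6% of all features, and the median log2 fold change was 0.04. After adjustment over all features 0 passed 0.05 in edgeR, DESeq2 or limma voom, which called 9, 7 and 10 at the unadjusted threshold. Over all features, 1598 were called, or 1226 without control mouse 5, 2365 without PLDP mouse 17 and 1375 without PLDP mouse 26. Among 19 glycolysis targets 1 was called, or 4 without PLDP mouse 17 and 2 without PLDP mouse 26. It was the glucose transporter gene Slc2a1, which rose from 89.1 ± 5.74 to 100.1 ± 4.90 CPM (mean ± SD of 3 mice), by 0.17 on the log2 scale (adjusted p = 0.363).

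Among 16 tested vascular and iron targets 4 were called higher and 0 lower, with a median log2 fold change of 0.10. Of the 16, 13 had positive log2 fold changes. Kdr, Tek and Tfrc had negative ones of -0.10, -0.02 and -0.06 and were not called. Pdgfb, a growth factor that recruits pericytes, had the smallest p of the 4 and rose from 22.9 ± 0.28 to 28.3 ± 1.32 CPM (mean ± SD of 3 mice). In edgeR's quasi-likelihood test Pdgfb differed by 0.30 on the log2 scale (standard error 0.07) with an adjusted p of 0.132. The others were the VEGF receptor gene Flt1, the endothelial receptor gene Eng and the lipase inhibitor gene Angptl4, which rose by 0.14, 0.18 and 0.45 on the log2 scale, with adjusted p values of 0.436, 0.522 and 0.533 in turn. The count of 4 fell to 2 with DESeq2, without control mouse 5 and without PLDP mouse 17. Eng and Angptl4 were each called in 7 of the 12 alternative analyses. Of 10 endothelial markers, 1 was called higher, against 4.91% of all features. It was Pecam1, with a log2 fold change of 0.25, and the summed CPM of the list was 247.7 to 255.6 in control mice and 234.8 to 269.3 in PLDP mice. The count called in either direction, 1 with all 6 mice, was 5 without control mouse 10, 3 without PLDP mouse 17 or 22 or with no filter on low counts, and 2 without PLDP mouse 26. Of 11 mural cell markers 1 was called higher, Rgs5, with a log2 fold change of 0.11, and the list's summed CPM was 227.7 to 237.8 in control mice and 232.9 to 249.1 in PLDP mice. The mural count in either direction was 0 without control mouse 2, control mouse 5 or PLDP mouse 26, and 2 without PLDP mouse 17 or 22. No marker of either list was at 0 in any mouse, and their part in the values of Epas1 and the vascular targets was not tested.

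Of 26 other HIF targets 2 were called higher and 2 lower, with a median log2 fold change of -0.02, where over all features 4.91% were called higher and 3.69% lower. The stress-response gene Ddit4 fell from 63.1 ± 4.10 to 55.6 ± 1.20 CPM and the clock-linked repressor gene Bhlhe41 from 70.9 ± 4.31 to 64.7 ± 0.98 CPM (SD, n = 3 each). Bhlhe40, the closest relative of Bhlhe41, rose from 102.6 ± 0.85 to 113.6 ± 7.43 CPM, and the collagen hydroxylase gene P4ha1 from 37.9 ± 1.53 to 44.3 ± 6.29 CPM. The adjusted p of these 4 genes were 0.321, 0.476, 0.399 and 0.440 in edgeR's quasi-likelihood test. The count of 4 was 7 without PLDP mouse 17, and 2 without control mouse 5 or PLDP mouse 26. Over all features the count of 1598 moved the same way, to 2365, 1226 and 1375 in turn. In the pyruvate dehydrogenase complex and its other kinases and phosphatases, 0 of 9 genes were called higher and 2 lower (3.69% over all features), Pdha1 and Dld, both subunits of the complex. Their log2 fold changes were -0.11 and -0.12 (adjusted p = 0.440 and 0.493). The count of 2 was 1 without control mouse 2, control mouse 5 or PLDP mouse 26.

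Of 12 genes known to respond to glucocorticoids, 5 were called higher and 0 lower, with a median log2 fold change of 0.08. The share called higher over all features was 4.91%. The list was drawn up with earlier results of these data known, so its count is a description and no independent test. Ddit4, known to respond to both stimuli, stood in the HIF target list and not here. It was called lower, with a log2 fold change of -0.18, so the count of 0 lower holds only for the list as drawn. Zbtb16, a zinc-finger transcription factor, came nearest to Hif3a in size. It had 19.5, 16.5 and 18.6 CPM in the control mice and 21.03, 36.25 and 36.88 CPM in the PLDP mice. PLDP mouse 17 was just above the control mice, unlike for Hif3a, and the other PLDP mice were far above them. In edgeR's quasi-likelihood test Zbtb16 differed by 0.79 on the log2 scale (standard error 0.15) with an adjusted p of 0.0785. Cdkn1a, Fkbp5 and Per1 rose by log2 fold changes of 0.32, 0.24 and 0.10 (adjusted p = 0.294, 0.306 and 0.525), and values of Cdkn1a and Fkbp5 overlapped between the diets. Plin4, a lipid droplet gene named after its values were seen, was the fifth gene called, with a log2 fold change of 0.49 and an adjusted p of 0.547 in the same test. It had 3.62 to 7.17 CPM in the control mice and 5.25 to 9.29 CPM in the PLDP mice, which overlap, and it was called in 7 of the 12 alternative analyses. Without control mouse 2 or PLDP mouse 22 the count was 3, and after adjustment over all features 0 passed 0.05 in edgeR, DESeq2 or limma voom, with 5, 4 and 5 called higher at the unadjusted threshold.

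**Figure D4:**
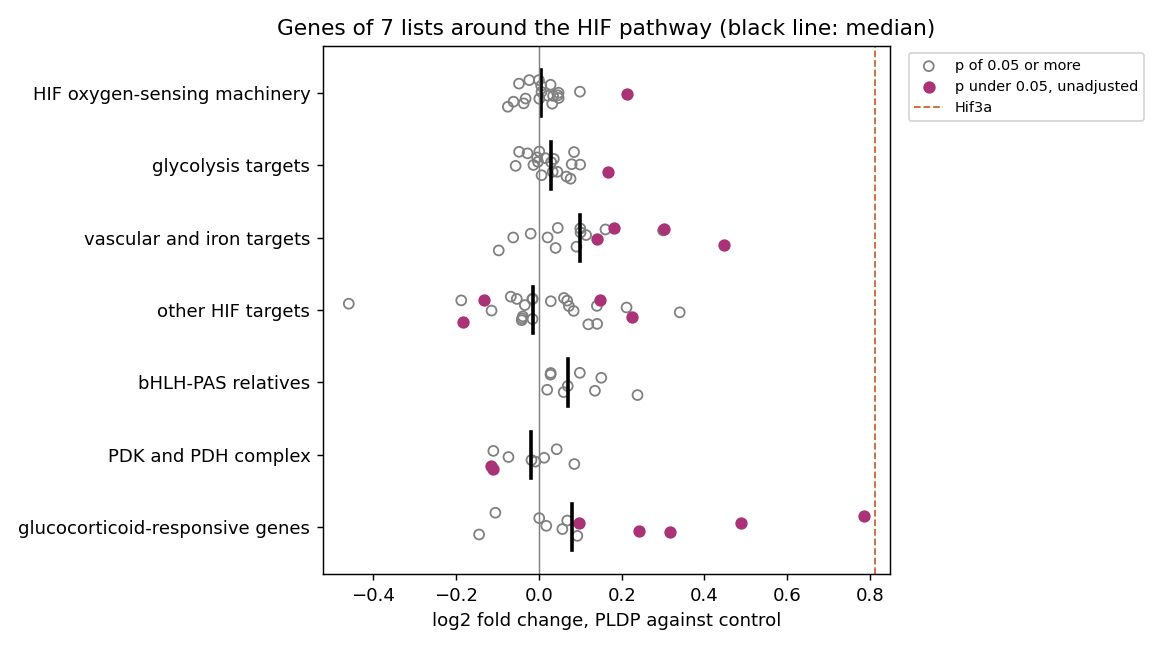
Log2 fold change of PLDP against control mice for the tested genes of 7 lists (rows), with genes called at an unadjusted p under 0.05 filled and the others open. Black lines are list medians, from -0.02 to 0.10, and the dashed line is Hif3a at 0.81. Zbtb16, among the glucocorticoid-responsive genes, is the point nearest to it.

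The genes most like Hif3a across the 6 mice came from outside the pathway. Likeness was measured as Pearson's r of log2(CPM + 1) over 6 mice, among 16418 tested features with a mean of at least 1 CPM. The highest among named genes was Camk1g, a calcium/calmodulin-dependent kinase gene (r = 0.99), followed by Mcc, Mdm1, St7 and Capn15 (each r = 0.98). Camk1g had 22.9, 23.9 and 24.6 CPM in the control mice and 26.2, 26.0 and 27.2 CPM in the PLDP mice, a log2 fold change of 0.15, so that it shared the order of the mice nearly in full but not the size of the difference. Over all features compared, 45 had an r of at least 0.95 and 41 had a negative r of at least that size, and the 6 points share the split into diets. Among the members, r with Hif3a over the 6 mice was 0.79 for Epas1, 0.69 for Adm, 0.37 for Ankrd37, 0.35 for Pdk4, 0.22 for Pdk1, -0.03 for Vegfa, -0.30 for Hif1a, -0.86 for Bnip3 and -0.88 for Egln3. With the diet means subtracted the order was another: r was 0.80 for Pdk1, 0.70 for Pdk4, 0.59 for Vegfa, 0.45 for Hif1a and 0.16 for Adm, and it was -0.09 for Ankrd37, -0.33 for Egln3, -0.34 for Epas1 and -0.69 for Bnip3.

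Mitochondrial genes took 2.54% to 2.80% of the counts, and the defining markers of neurons, astrocytes and microglia were present in every mouse. Over all features 4.91% were called higher and 3.69% lower, and 14.2% did not overlap between the diets, shares against which the marker counts here are to be read. Of 11 hindbrain markers, 0 were called higher and 9 lower in PLDP mice. Their summed CPM was 165.1 to 180.5 in control mice and 93.7 to 131.1 in PLDP mice, without overlap. Slc6a5, the glycine transporter gene of this list, fell from 45.1 ± 3.77 to 28.6 ± 5.50 CPM (mean ± SD of 3 mice), with an adjusted p of 0.0369 in edgeR's quasi-likelihood test. In the choroid plexus list the summed CPM was 747.2 to 806.7 in control mice and 585.9 to 746.6 in PLDP mice, and 2 of 7 markers were called lower, Ttr and Folr1. The count called in either direction was 1 in DESeq2, limma voom and without control mouse 2, control mouse 5 or PLDP mouse 17, and 4 without PLDP mouse 22. The summed CPM of the 7 microglial markers was 303.7 to 318.3 in control mice and 295.3 to 299.4 in PLDP mice, also without overlap, and 1 of them, P2ry12, was called lower, or 0 in DESeq2 and without control mouse 5 or PLDP mouse 22. The part of these markers in the values of Hif3a was not tested. Of 9 astrocyte markers 0 were called higher and 2 lower, Fgfr3 and Aqp4, with log2 fold changes of -0.21 and -0.11, and the list's summed CPM was 2839 to 2895 in control mice and 2774 to 3009 in PLDP mice. The count called in either direction was 1 without control mouse 10 or PLDP mouse 26, 3 without PLDP mouse 17 and 4 with no filter on low counts.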

How the data were processed

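The authors deposited raw counts of reads per gene for 6 brain libraries (stranded TruSeq mRNA). The submitters' processing notes name cutadapt 2.9, HISAT2 2.2.0, featureCounts 2.6.0 and DESeq2 1.6.3, and list both GRCh38 and GRCm38. The strand setting is not given in the sources used here. Gene IDs were matched to GENCODE M21 (GRCm38): 54777 of 55034 Ensembl IDs were found.

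From the deposited counts, edgeR 4.0.16 (R 4.3.3) was run with filterByExpr (minimum count 10, total 15), TMM scaling and a quasi-likelihood test of diet over 18580 features, with Benjamini-Hochberg adjustment over all of them. Genes with an unadjusted p under 0.05 are referred to as called. The fit was tested on simulated data. Mouse numbers mark separate animals, and each diet had 3.

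The 10 genes and all lists were chosen with earlier results of these data known. Named genes were the 10 members, up to 4 genes of each list with the smallest p under 0.05 (otherwise the most abundant; Plin4 was added after its values were seen), tested neighbors of Hif3a, the 5 named genes most correlated with it, and tissue markers. Alternatives were no filter, 10 counts in every mouse, RLE scaling, library size only, DESeq2 1.42.0, limma voom 3.58.1, a pseudocount of 0.5 CPM for the correlation and each mouse left out. Promoter sequences came from RefSeq. Depth, at the totals given, limits mainly Adm, Hif3a and Ankrd37.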

Additional observations from a re-analysis of the deposited data

How the results depend on the processing

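The log2 fold change of Hif3a was between 0.64 and 0.94 in the 12 alternative analyses. Its positive sign there was set beforehand, because Hif3a was chosen by this difference and its values did not overlap between the diets. Epas1 was called in all 12. The number called among the 9 genes chosen on function was 1 to 2 with each mouse left out, with Bnip3 added without control mouse 10 and Adm without PLDP mouse 17. Among the 61 tested HIF targets the count was 9, and 5 to 13 with each mouse left out. The count of glucocorticoid-responsive genes called higher was 5, and 3 to 6 with each mouse left out. That of vascular and iron targets was 4, with 2 under DESeq2 and 2 to 3 with each mouse left out. The causes of these moves were not tested. Over all features 1598 were called, 926 with DESeq2 and 2360 with no filter. Leaving out control mouse 2, 5 or 10 gave 1133, 1226 or 1610. Leaving out PLDP mouse 17, 22 or 26 gave 2365, 1544 or 1375. After adjustment 6 passed in the main analysis, 13 with DESeq2 and 180 with no filter. The number was 182 without PLDP mouse 17, 1 by library size only and 0 without control mouse 5. The direction of Pdk4 turned between settings, from -0.10 to 0.22, and that of Pdk1 turned once, to 0.02 without control mouse 5, from -0.04 at the lowest; neither was called in any of them. No paired analysis was possible because the diets share no mouse number. Low counts limit Adm most, at 35 to 55 counts per mouse.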
